A study of Mus musculus with 6 samples.

Results

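The Ikaros family is a small group of zinc finger transcription factors, and its 5 mouse genes, Ikzf1 (Ikaros), Ikzf2 (Helios), Ikzf3 (Aiolos), Ikzf4 (Eos) and Ikzf5 (Pegasus), were taken by symbol from a table of 29659 genes. All 5 were listed once. RNA had been sequenced from the lateral ganglionic eminence (LGE), the embryonic ventral forebrain region whose precursors form the striatum, of C57BL/6 mouse embryos at embryonic day 16.5. The 3 control libraries came from mice labelled Dlx5/6-Cre, and the 3 Zfhx3-CKO libraries from mice labelled Dlx5/6-Cre; Zfhx3F/F, so both groups carry the Cre transgene and only the second carries floxed Zfhx3, a homeodomain and zinc finger transcription factor gene. Dlx5/6-Cre drives recombination in GABAergic cells of the ganglionic eminences. Microglia, vessels and cortical excitatory neurons in the same piece of tissue are outside its domain. The comparison asks how RNA levels of the family differ in LGE after this conditional loss of Zfhx3.

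Members of the family bind DNA through zinc fingers near the N-terminus, where Ikaros recognises sequences with a GGGAA core, and pair with each other through fingers at the C-terminus. They recruit chromatin complexes such as NuRD, Sin3 and CtBP, and are best known for their part in lymphocyte development. In the striatum, Ikaros and Helios are expressed in differentiating projection neurons and have been tied to the enkephalin-producing, D2-type class and to the exit of precursors from the cell cycle. Eos and Aiolos are close relatives known mainly from lymphocytes, and Pegasus is the most divergent member.

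Library totals were 15938590 to 20311799 counts. The labels do not say that the libraries came from separate animals, so each p-value reflects library-to-library spread that may be technical only. Zfhx3 itself was at 123 ± 19.3 CPM (counts per 1000000 of the TMM-scaled library total; SD, n = 3) in control and 95.1 ± 6.75 CPM in Zfhx3-CKO libraries, a log2 difference of -0.37 that missed the threshold (edgeR adjusted p 0.0911), and counts over the whole gene check the labels only weakly because the deleted exons are not given. Xist had 5 to 9 counts in each control library, with 4939 to 5451 counts over 4 Y-linked genes, whereas Zfhx3-CKO libraries held 55947 to 59631 counts of Xist and 5 to 8 of the others. Genotype and sex cannot be told apart in any result here. No family member lies on a sex chromosome, which does not remove this limit. The GABAergic genes Gad1, Gad2, Slc32a1, Dlx1 and Dlx2 summed to 2027 to 2203 CPM in control and 1989 to 2292 CPM in Zfhx3-CKO libraries. They mark GABAergic cells in general and not LGE alone. One of them, Gad2, fell (log2 difference -0.35, adjusted p 0.0293). Cortical excitatory neuron genes stood higher in Zfhx3-CKO libraries 1 and 3 (list median 1.58 and 2.05 above the control mean on the log2 scale) than in library 2 (0.09), so the family was also tested without libraries 1 and 3.

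The relation between the members is visible in the DNA that encodes their fingers. Below is the second finger that a search of the longest coding sequence of each gene found (GENCODE vM21, GRCm38), a finger of the N-terminal, DNA-binding group, for the 4 closest members. Capitals mark the codons of the cysteines and histidines that hold the zinc ion. The stretches lie at chr11:11754024-11754086 (plus strand), chr1:69570581-69570643 (minus), chr11:98488940-98489002 (minus) and chr10:128640229-128640291 (minus), in coding exons.
Ikzf1: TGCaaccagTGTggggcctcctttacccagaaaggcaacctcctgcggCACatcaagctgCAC
Ikzf2: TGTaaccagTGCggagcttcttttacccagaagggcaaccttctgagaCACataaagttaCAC
Ikzf3: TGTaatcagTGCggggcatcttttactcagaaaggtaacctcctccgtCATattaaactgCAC
Ikzf4: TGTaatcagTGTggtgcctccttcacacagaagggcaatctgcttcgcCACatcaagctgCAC
Of the 63 bases, Ikzf2 shares 51, Ikzf3 51 and Ikzf4 53 with Ikzf1.

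Ikzf5 holds 3 matches to the same spacing where the others hold 4 each. Fingers with another spacing were not searched for, so these may not be full finger counts. The closest match of Ikzf5 to an Ikzf1 finger is the last match found, from the C-terminal, pairing region. That finger is shown for Ikzf1 (chr11:11769411-11769473, plus strand) and Ikzf5 (chr7:131391739-131391801, minus strand), which share 43 of 63 bases.
Ikzf1: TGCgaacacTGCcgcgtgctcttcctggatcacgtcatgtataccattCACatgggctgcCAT
Ikzf5: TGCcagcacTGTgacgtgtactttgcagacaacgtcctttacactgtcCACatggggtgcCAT
The likeness bears on how reads are assigned to the members. The longest run of bases that any transcript of Ikzf1 shares with another member was 26 bases (Ikzf3), followed by 24 (Ikzf4), 17 (Ikzf2) and 15 (Ikzf5). The longest between any pair was 32 bases, between Ikzf2 and Ikzf4.

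In the Zfhx3-CKO LGE, Ikzf1 and Ikzf5 fell, Ikzf2 and Ikzf4 did not pass the test, and Ikzf3 was not measurable. A test needed enough counts to pass edgeR's default filter, and 4 of the 5 members did. Over all 16551 tested genes 7.35% were called at an adjusted p of 0.05. Of those 4, 2 were lower and 0 higher at an adjusted p of 0.05, where 3.48% of 16551 tested genes were lower and 3.87% higher. By DESeq2 the counts were again 2 and 0, where 4.44% of genes were lower and 6.01% higher, and 0 members were higher at an unadjusted p of 0.05 in edgeR's test. Without Zfhx3-CKO libraries 1 and 3 they were 2 and 0 as well, where 4.93% of genes were lower and 4.97% higher. The count of lower members was 1 in 7 of 15 alternatives, in which Ikzf5 lost its call or was not tested. In bulk tissue, fewer cells that express a gene and less of its RNA per cell cannot be told apart.

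**Figure D1:**
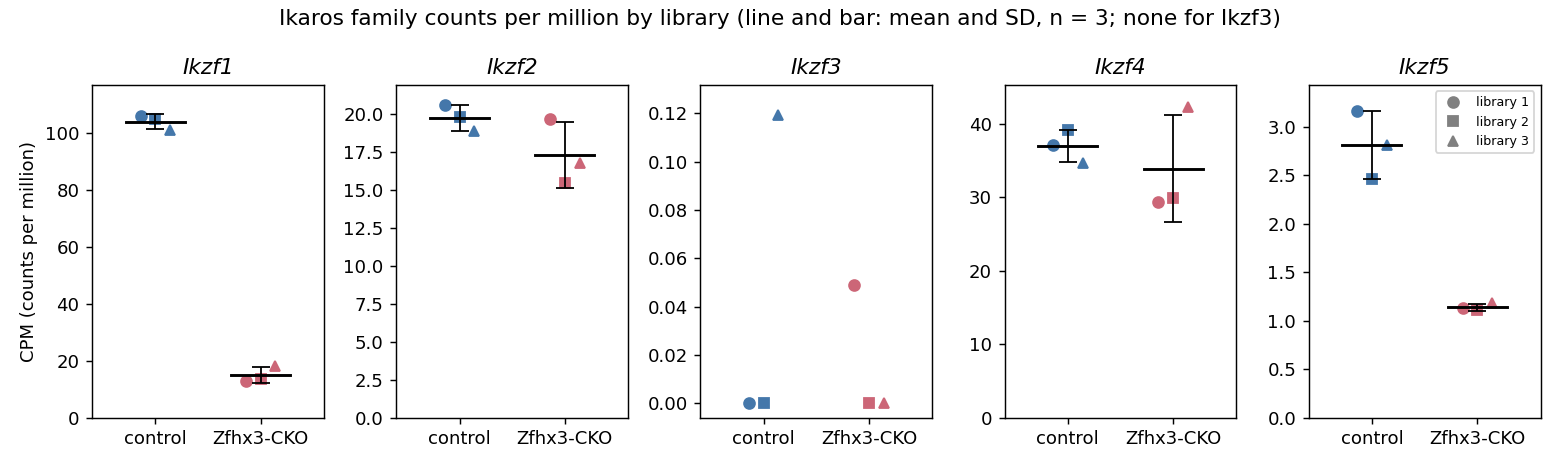
CPM of each family member (vertical axis, its own scale per panel, from 0 except for a small margin below 0 for Ikzf3) in the 3 control and 3 Zfhx3-CKO libraries, with symbols for libraries 1 to 3, and line and bar for mean and SD. Ikzf1 lies at 101 to 106 CPM in controls and 12.9 to 18.2 CPM in Zfhx3-CKO libraries, Ikzf5 separates at a far lower level, and Ikzf2 and Ikzf4 overlap.

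Ikzf1, which encodes Ikaros (ENSMUSG00000018654, chromosome 11, 11685003 to 11772926, plus strand, GRCm38), had 1778, 1667 and 1692 counts in control libraries 1, 2 and 3 and 263, 260 and 356 in Zfhx3-CKO libraries 1, 2 and 3. In CPM these were 106, 105 and 101 against 12.9, 13.8 and 18.2. The groups lie far apart, the controls are within a few CPM of each other, and Zfhx3-CKO library 3 is the highest of its group. The level fell 6.96-fold in edgeR's test, to 14.4% of control with a 95% interval of 11.7% to 17.6% (log2 fold change -2.80, SE 0.13, adjusted p 1.75e-05). No Zfhx3-CKO library reached the lowest control, which held for 15.9% of tested genes, and the exact two-sided permutation test on CPM gave p = 0.1, the smallest that 3 against 3 libraries allow. By p the gene ranked 8 among 16551, and by size of fall 47 among the 15120 tested genes with at least 1 CPM in controls. The fall was as large in Zfhx3-CKO library 2 alone, where cortical genes stood at the control level (log2 fold change -2.92, adjusted p 1.3e-06). In the authors' deposited table Ikzf1 stands at -2.55 on the log2 scale, with adjusted p 1.57e-89 and a mark of significance.

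On the FPKM scale, which divides by gene length, Ikzf1 was at 18.4, 18.1 and 17.7 in controls, above 79.8% of tested genes. Its FPKM in Zfhx3-CKO libraries were 2.24, 2.37 and 3.13, above 33.7% of them. Residual Ikzf1 RNA was thus well measured, at 260 counts or more per library.

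Ikzf1 has more than one annotated start, and counts per gene do not tell them apart. The bases upstream of the RefSeq starts (GRCm38.p6) are shown because this is the member whose level moved most. The first stretch, chr11:11685675-11685924 (plus strand), is free of annotated exons and lies in an intron of Ikzf1 transcripts that begin farther upstream. The second, chr11:11689927-11690176, lies in an intron of the gene. Capitals mark the Ikaros core GGGAA or its complement TTCCC.
Ikzf1, first start: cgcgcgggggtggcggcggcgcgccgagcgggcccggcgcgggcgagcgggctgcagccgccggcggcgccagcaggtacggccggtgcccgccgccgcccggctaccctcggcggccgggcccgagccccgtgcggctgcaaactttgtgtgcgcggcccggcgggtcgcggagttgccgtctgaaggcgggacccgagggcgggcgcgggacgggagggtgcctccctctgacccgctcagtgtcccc
Ikzf1, second start: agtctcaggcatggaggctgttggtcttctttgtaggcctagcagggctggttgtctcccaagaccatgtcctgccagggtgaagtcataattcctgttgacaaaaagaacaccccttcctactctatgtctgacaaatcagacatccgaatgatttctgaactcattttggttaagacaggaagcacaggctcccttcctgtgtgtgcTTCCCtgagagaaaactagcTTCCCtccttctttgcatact
The first has a G and C content of 82% against a median of 52.4% over 32851 RefSeq windows of that length, and holds neither GGGAA nor the homeodomain core TAAT on either strand. The second holds 47.6% G and C, GGGAA 2 times and TAAT 1 time. Over all windows of that length 56.2% hold GGGAA and 54.9% hold TAAT on one strand or the other, so both motifs are common, and a match here is a string of letters and not a known site.

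A noncoding gene on the opposite strand within Ikzf1, Gm12000 (chromosome 11, 11695133 to 11696439), fell with it. It had 44, 56 and 25 counts in controls and 7, 4 and 9 in Zfhx3-CKO libraries (log2 fold change -2.88, SE 0.43, adjusted p 0.00764). Its exons share no base with Ikzf1 exons and lie in an Ikzf1 intron, and the kit does not mark strand, so reads of unspliced Ikzf1 RNA and of Gm12000 cannot be told apart. The next protein-coding gene, Fignl1, which encodes an ATPase of DNA repair and lies 14505 bases beyond the end of Ikzf1, was at 44.5 CPM in control and 45.3 CPM in Zfhx3-CKO libraries, a log2 difference of 0.03 (adjusted p 0.917).

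**Figure D2:**
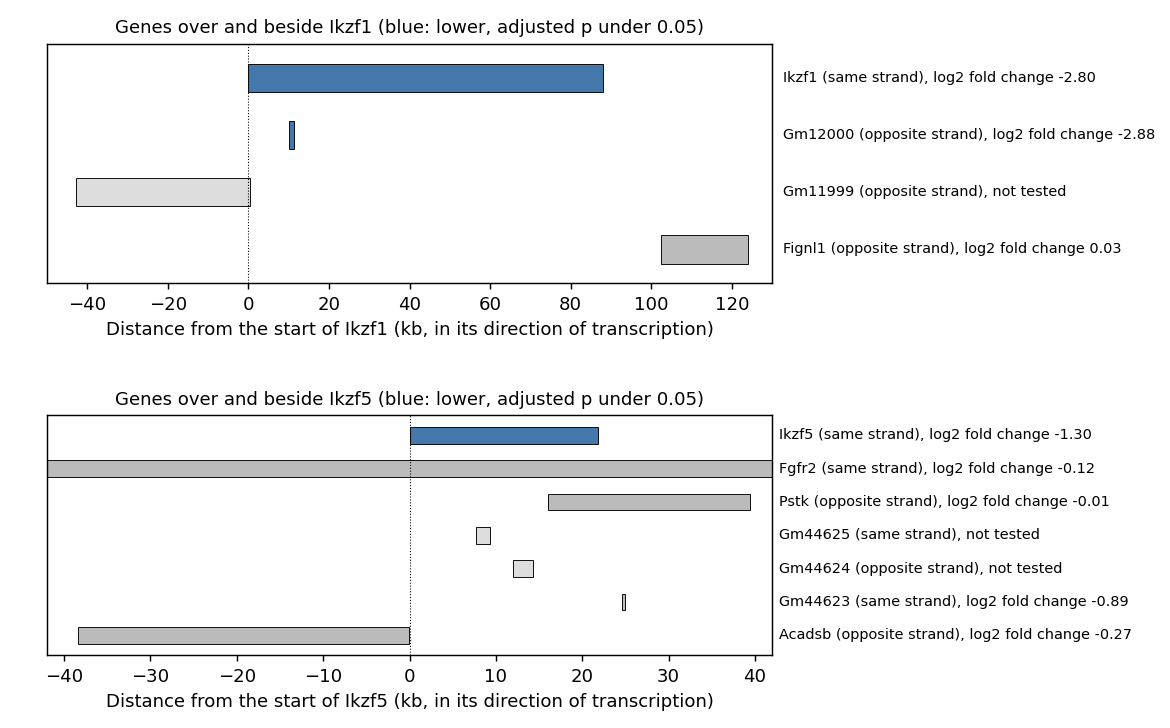
Extent of each gene over and beside Ikzf1 (top) and Ikzf5 (bottom), in kb from the start of that member in its direction of transcription, with strand and log2 fold change at the right. Blue marks genes that were lower at an adjusted p of 0.05 (Ikzf1, Gm12000 and Ikzf5), grey those that did not pass, and light grey those with too few counts to test; the Fgfr2 bar runs on beyond both edges, and Gm11998, farther upstream of Ikzf1, is not drawn.

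Ikzf5, which encodes Pegasus (ENSMUSG00000040167, chromosome 7, 131388652 to 131410521, minus strand), had 53, 39 and 47 counts in controls and 23, 21 and 23 in Zfhx3-CKO libraries. In CPM these were 3.16, 2.46 and 2.81 against 1.13, 1.11 and 1.18, so that the groups do not overlap and the Zfhx3-CKO libraries nearly coincide. The level fell 2.46-fold, to 40.6% of control with a 95% interval of 28.4% to 58.1% (log2 fold change -1.30, SE 0.23, adjusted p 0.0137). The direction held in each alternative that could test the gene, but the call was lost without control library 1 (adjusted p 0.0851), control library 2 (0.0524) or Zfhx3-CKO library 1 (0.062), and when replicate number was added as a block (0.0707). In the authors' deposited table Ikzf5 stands at -0.77 on the log2 scale, with adjusted p 0.00658 and no mark of significance.

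The level of Ikzf5 is uncertain for a reason of position. Of its 5721 exonic bases, 4652 are also exonic in Pstk, a kinase gene of selenocysteine synthesis on the opposite strand, and the sources used here do not say how reads in shared bases were assigned. Pstk was at 9.34 CPM in control and 9.30 CPM in Zfhx3-CKO libraries, a log2 difference of -0.01 (adjusted p 0.983). The deposited span of Fgfr2, a fibroblast growth factor receptor gene on the same strand, covers Ikzf5 whole but shares no exonic base with it, and Fgfr2 differed by -0.12 on the log2 scale (adjusted p 0.647).

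On the other side, Acadsb, a fatty acid dehydrogenase gene, starts 80 bases from Ikzf5 and is read in the opposite direction. The exon-free stretch between them, chr7:131410522-131410600, is shown on the Ikzf5 strand (minus), since both genes start beside it.
Ikzf5 to Acadsb: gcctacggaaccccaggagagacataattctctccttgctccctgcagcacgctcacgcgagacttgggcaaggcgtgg
It holds 60.8% G and C, no GGGAA on either strand and TAAT 1 time, where 22.5% and 24.5% of RefSeq windows cut at the same place hold them. Acadsb had 1413, 1229 and 1292 counts in controls and 1335, 1219 and 1345 in Zfhx3-CKO libraries (log2 fold change -0.27, SE 0.07, adjusted p 0.0546), so that it did not pass while Ikzf5 did. The difference between these genes was not tested.

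Ikzf2, which encodes Helios (ENSMUSG00000025997, chromosome 1, 69531214 to 69687245, minus strand), was at 20.6, 19.8 and 18.9 CPM in controls and 19.7, 15.5 and 16.8 CPM in Zfhx3-CKO libraries. Library 1 of the Zfhx3-CKO group lies inside the control range and the other two below it. The log2 fold change was -0.19 (SE 0.12, adjusted p 0.362), with a 95% interval from 72.4% to 106% of control, and the exact permutation test gave p = 0.2. A fall as deep as that of Ikzf1 lies outside this interval. Without Zfhx3-CKO libraries 1 and 3 the value was -0.35 (adjusted p 0.155), without library 1 alone it was -0.29 and without library 2 alone -0.11, with no call in any of them. The nearest tested gene, Spag16, a sperm flagellum gene, had a log2 difference of 0.55 (adjusted p 0.462). The noncoding Gm29114, Gm28112 and Gm29113 over or beside Ikzf2 had 0 to 6 counts per library and were not tested.

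Ikzf4, which encodes Eos (ENSMUSG00000002578, chromosome 10, 128630843 to 128645991, minus strand), was at 37.1, 39.2 and 34.7 CPM in controls and 29.4, 30 and 42.4 CPM in Zfhx3-CKO libraries. Zfhx3-CKO libraries 1 and 2 lie below every control and library 3 above every one. The log2 fold change was -0.13 (SE 0.15, adjusted p 0.636), with a 95% interval from 72.8% to 115% of control. Without Zfhx3-CKO library 3 it was -0.32 (adjusted p 0.054), and without libraries 1 and 3 it was -0.30 (adjusted p 0.147). It shrank to -0.03 without Zfhx3-CKO library 1, -0.04 without library 2 and -0.07 without control library 2. The gene beside Ikzf4 on the same strand, the ribosomal protein gene Rps26, had a log2 difference of -0.03 (adjusted p 0.827), and the noncoding Gm26876, which shares 37 exonic bases on the opposite strand, one of -0.33 (adjusted p 0.555). The noncoding AC117232.4 on the other side had 4 to 12 counts per library and was not tested.

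Ikzf3, which encodes Aiolos (ENSMUSG00000018168, chromosome 11, 98464902 to 98546031, minus strand), had 0, 0 and 2 counts in controls and 1, 0 and 0 in Zfhx3-CKO libraries. A count of 0 allows up to 3 counts, or 0.147 to 0.189 CPM in these libraries, for counting error only. Every library was under that limit, so a difference was not detectable at this depth and no fold is given. The genes beside it, Grb7 and Zpbp2, were also sparse, with 5 to 20 and 0 to 2 counts per library.

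**Figure D3:**
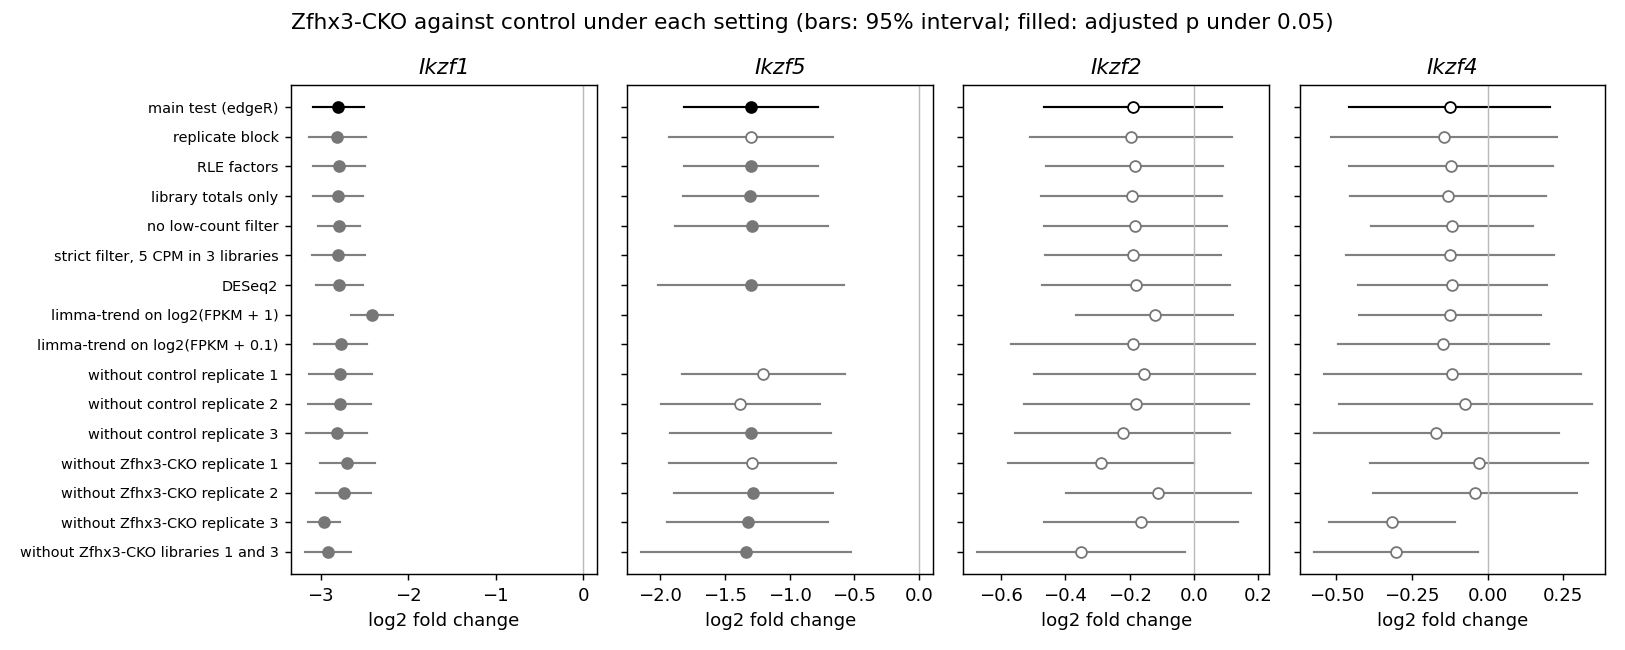
Log2 fold change (horizontal axis, Zfhx3-CKO against control) of the 4 tested members in the main test and in each alternative, with 95% intervals, filled where the adjusted p was under 0.05. Ikzf1 is filled throughout between -2.97 and -2.42, Ikzf5 stays near -1.3 but is open in 4 settings and untested in 3, and Ikzf2 and Ikzf4 are open in each.

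The order of the members by FPKM differed between the groups. In controls the mean FPKM was 18.0 ± 0.362 for Ikzf1, 6.18 ± 0.334 for Ikzf4, 1.71 ± 0.0665 for Ikzf2 and 0.492 ± 0.0627 for Ikzf5. In Zfhx3-CKO libraries Ikzf4 came first at 5.65 ± 1.19, followed by Ikzf1 at 2.58 ± 0.479, Ikzf2 at 1.49 ± 0.195 and Ikzf5 at 0.199 ± 0.00532 (SD, n = 3 throughout). Ikzf3, with at most 2 counts, came last in both. Neighbours among the first 4 did not overlap in either group. The place of Ikzf5 rests on its full exonic length, most of which it shares with Pstk.

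Ikzf1 thus went from the most abundant family transcript per length to the second. It made up 68.3%, 67.7% and 68.8% of the summed FPKM of the family in controls and 24.7%, 26.7% and 26.6% in Zfhx3-CKO libraries, 42.3 percentage points less on average. The share of Ikzf4 went from 23.4 ± 0.839% to 56.7 ± 2.65%, and that of Ikzf2 from 6.45 ± 0.125% to 15.3 ± 3.32%, without a called change in the level of either. The share of Ikzf5 was 1.86 ± 0.236% and 2.03 ± 0.257%, with overlapping groups. For Ikzf1, Ikzf4 and Ikzf2 the groups did not overlap (exact two-sided permutation p = 0.1, the smallest possible with 3 against 3).

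The ratio of Ikzf1 to Ikzf4 FPKM was 2.97, 2.78 and 3.02 in controls and 0.454, 0.476 and 0.446 in Zfhx3-CKO libraries. Within each group this ratio was nearly constant, although Zfhx3-CKO library 3 held more of both genes than libraries 1 and 2. On the log2 scale the mean was 1.55 in controls and -1.12 in Zfhx3-CKO libraries, with an SD of 0.063 in controls and 0.048 in Zfhx3-CKO libraries (n = 3 each).

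Summed over the 5 members, FPKM was 26.4 ± 0.679 in controls and 9.92 ± 1.62 in Zfhx3-CKO libraries, with no overlap. Summed over the 4 members other than Ikzf1 it was 8.38 ± 0.345 and 7.34 ± 1.15, with overlap (exact permutation p = 0.4). The family total without Ikzf1 thus did not separate the groups, while the total with it did.

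**Figure D4:**
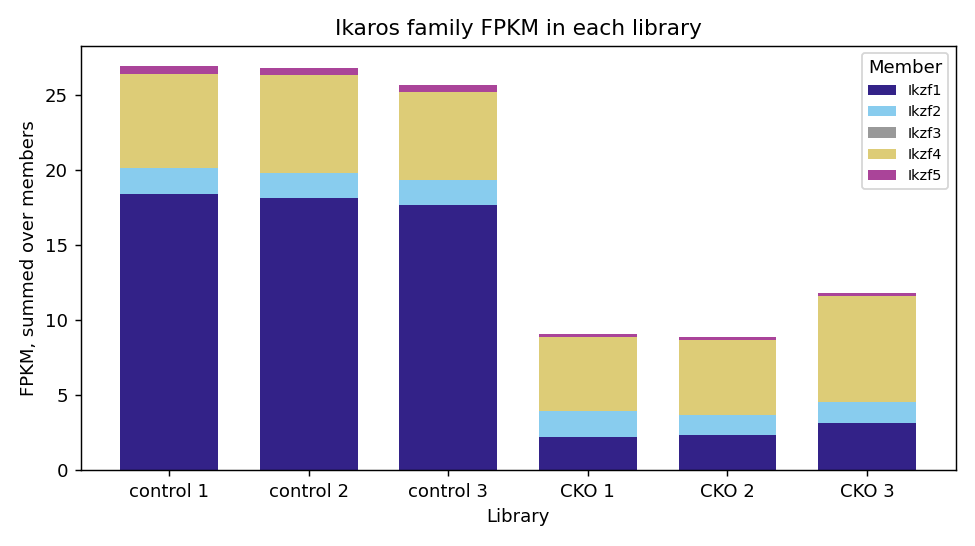
Stacked FPKM of the 5 family members (vertical axis) in each of the 6 libraries. The control bars reach 25.6 to 26.9 and are mostly Ikzf1, and the Zfhx3-CKO bars reach 8.89 to 11.8 and are mostly Ikzf4.

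Each member was also set against the GABAergic genes of the tissue, Gad1, Gad2, Slc32a1, Dlx1 and Dlx2. Gad2 itself was lower, as given above. Relative to their mean log2 CPM, and to the control mean, the Zfhx3-CKO libraries 1, 2 and 3 had Ikzf1 values of -2.90, -2.97 and -2.45, and the controls lay between -0.06 and 0.09. The Ikzf5 values were -1.13, -1.32 and -1.11, and between -0.22 and 0.23 in controls. Neither overlapped with controls (exact permutation p = 0.1 each, the smallest possible), while Ikzf2 and Ikzf4 overlapped (p = 0.4 and 0.6).

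The striatal neuron factors Bcl11b, Foxp1 and Meis2 served as another reference, whose mean log2 CPM stood 0.44 to 0.67 lower in Zfhx3-CKO libraries. Singly, Foxp1 (log2 fold change -1.17) and Bcl11b (-0.50) fell, while Meis2 (-0.02) did not pass. Against this mean, Ikzf1 was 2.24 and Ikzf5 0.65 below control on average, and Ikzf2 and Ikzf4 were 0.37 and 0.42 above it. Those last values turn the direction seen on the CPM scale, and the exact permutation p was 0.1 for each of the 4.

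The genes with the profile nearest to that of Ikzf1 over the 6 libraries were sought among 15154 tested genes, by the root-mean-square distance of log2 CPM centred on the control mean. The nearest was Ebf1, a transcription factor of D1-type striatal neurons, at a distance of 0.137. Ebf1 was at 249, 261 and 208 CPM in controls and 30.4, 26.4 and 39.7 CPM in Zfhx3-CKO libraries (log2 fold change -2.89). Stra6l, a retinol-binding protein receptor gene, followed at 0.152, with 46.7 ± 7.34 and 6.45 ± 0.547 CPM. The next were farther: H2-DMb2, an MHC class II peptide-loading gene, at 0.402, Gm12000 at 0.422 and Fsd2 at 0.456. Distances over 6 libraries of which 3 are shared controls mostly reflect the size of the group difference.

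For Ikzf5 the nearest were mt-Rnr2, the mitochondrial large ribosomal RNA, at 0.092, Tmem26 at 0.108, Mien1 at 0.116, Foxo1, a forkhead factor of striatal neurons, at 0.125 and the predicted gene Gm9347 at 0.148. Foxo1 was at 61.3 ± 4.37 CPM in control and 28.1 ± 2.65 CPM in Zfhx3-CKO libraries. With 21 to 53 counts per library, the Ikzf5 profile has wide counting error.

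Among the chromatin partners of the family, of 15 tested NuRD subunit genes 1 fell and 14 did not pass, with a median of 0.11 against 0.00 over all tested genes. The one that fell, Gatad2b, was at 193 ± 6.33 CPM in control and 150 ± 9.36 CPM in Zfhx3-CKO libraries, a log2 difference of -0.36 with adjusted p 0.0211. The summed NuRD level was 3465 to 3557 CPM in control and 3779 to 3835 CPM in Zfhx3-CKO libraries, without overlap, and 1 gene was higher by DESeq2. Of 8 Sin3 and CtBP corepressor genes 3 rose (4 by DESeq2) and 5 did not pass, with a median of 0.25. Their summed level was 895 to 952 CPM in control and 1052 to 1180 CPM in Zfhx3-CKO libraries, also without overlap. These were Sap30, a Sin3 complex subunit (25.5 ± 8.18 CPM in control, 54.0 ± 9.07 in Zfhx3-CKO, log2 difference 1.08, adjusted p 0.0214), Ctbp2, a CtBP corepressor (log2 fold change 0.43, adjusted p 0.0151), and Suds3, another Sin3 subunit (log2 fold change 0.31, adjusted p 0.0423).

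None of the 5 genes of the cereblon ubiquitin ligase, which degrades Ikaros and Aiolos when bound by thalidomide analogues, passed in edgeR's test or by DESeq2, and at an unadjusted p of 0.05 in edgeR's test 1 was higher and 1 lower. Cul4a came nearest, with 92.9 ± 0.925 CPM in control, 107 ± 3.65 CPM in Zfhx3-CKO and an adjusted p of 0.0828.

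**Figure D5:**
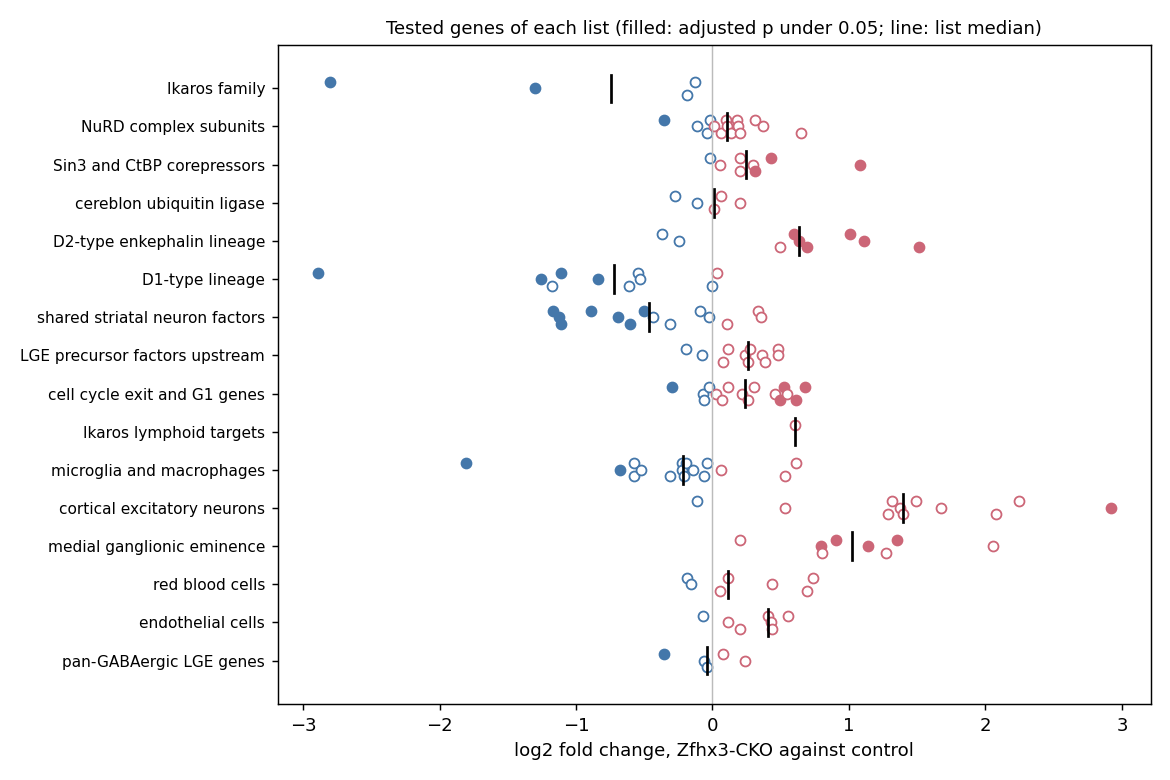
Log2 fold change (horizontal axis) of each tested gene of the family and of 15 other lists (rows), filled where the adjusted p was under 0.05, with a line at each list median. Ikzf1 and Ebf1 stand farthest to the left, and the filled genes of the D2-type list all lie to the right of 0.

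Genes of the striatal lineages in which Ikaros and Helios act moved in both directions. Of 9 tested D2-type genes 6 rose and 3 did not pass, with a median of 0.63. Penk, the enkephalin precursor, was at 4.95, 5.23 and 3.71 CPM in controls and 11.2, 9.63 and 18.8 CPM in Zfhx3-CKO libraries (log2 fold change 1.51, SE 0.27, adjusted p 0.0157). Drd2, the dopamine D2 receptor gene, rose from 24.2 ± 1.5 to 39.1 ± 7.69 CPM (adjusted p 0.0273). The other 4 were Sp9, a zinc finger factor of D2-type neurons (log2 difference 1.01), Adora2a, an adenosine receptor gene (1.11), Six3, a homeodomain factor (0.60), and Grik3, a kainate receptor gene (0.63). Any gene called higher rises beside the fall of Ikzf1 in this comparison, so a link between these 6 and Ikzf1 was not tested. Of the 3 that did not pass, Gpr6 (log2 difference -0.37) and Sp8 (-0.25) stood lower and Ptprm (0.50) higher.

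Of 10 tested D1-type genes 4 fell and 6 did not pass, with a median of -0.72, and of 14 factors shared by both neuron classes 7 fell and 7 did not pass, with a median of -0.47. Besides Ebf1 the D1-type genes that fell included Sox8, an SRY-box factor, and Isl1, a LIM homeodomain factor (log2 fold changes -1.11 and -1.26). Among the shared factors were Rarb, a retinoic acid receptor gene (-1.11), Rxrg, a retinoid X receptor gene (-0.89), the forkhead factors Foxo1 (-1.12), Foxp1 (-1.17) and Foxp2 (-0.69), and Zfp503, a zinc finger factor (-0.60). Drd1, the dopamine D1 receptor gene, stood at -0.61 and Tac1, the substance P precursor, at 0.03 on the same scale, with adjusted p of 0.196 and 0.959. Among the tested genes of all 16 lists, Ebf1 was the only one with a log2 fold change below that of Ikzf1.

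Upstream precursor factors of the LGE gave 0 calls in either direction among 11 tested genes in edgeR's test, with 4 higher at an unadjusted p of 0.05 and 1 higher by DESeq2. Nes, which marks neural precursors, had the smallest p (log2 fold change 0.36, adjusted p 0.106). Of 16 genes of cell cycle exit and the G1 phase 4 rose, 1 fell and 11 did not pass. Cdkn1a, the cyclin-dependent kinase inhibitor p21, was higher, at 39.2 ± 1.73 CPM against 24.5 ± 3.23 in control (log2 difference 0.68, adjusted p 0.0104), as did the cycling marker Mki67 (0.61, adjusted p 0.0124), the cyclin gene Ccnd1 (0.49, adjusted p 0.0142) and the kinase inhibitor gene Cdkn2c (0.53, adjusted p 0.0322). Rb1, the retinoblastoma gene, fell (-0.30, adjusted p 0.0322). The cyclin E genes Ccne1 (0.55, adjusted p 0.129) and Ccne2 (-0.06, adjusted p 0.798) did not pass.

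Ikzf1 is also expressed in immune cells, so their markers are given beside its fall. Of 16 microglia and macrophage genes 2 fell and 14 did not pass, none was at 0 in all libraries, and their summed level overlapped between the groups (486 to 721 CPM in control, 364 to 561 CPM in Zfhx3-CKO libraries). P2ry12, a purine receptor gene of microglia, was at 70.5 ± 17.8 CPM in control and 20.2 ± 5.66 CPM in Zfhx3-CKO (log2 difference -1.80, SE 0.23, adjusted p 0.00407), and Ptprc, the pan-leukocyte gene of CD45, at 10.5 ± 1.56 and 6.54 ± 0.0772 CPM (adjusted p 0.0356). Csf1r, C1qa and Cx3cr1 had log2 fold changes of -0.31, -0.22 and 0.61 and did not pass. The part of microglia in the fall of Ikzf1 was not tested.

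Of 18 lymphoid genes that Ikaros is known to regulate or mark, 15 were listed and 1, the kinase gene Lck, passed the filter. The 15 summed to 3.70 to 3.97 CPM in control and 4.28 to 6.60 CPM in Zfhx3-CKO libraries, below the level of Ikzf1 in every library and higher in each Zfhx3-CKO library than in any control, and Lck did not pass (log2 fold change 0.61, adjusted p 0.277). Red blood cell genes gave 0 calls among 7 tested genes in edgeR's test, 0 at an unadjusted p of 0.05 and 1 higher by DESeq2, with the smallest p for the globin gene Hbb-bs (log2 difference 0.73, adjusted p 0.29). Their summed level was 2554 CPM in Zfhx3-CKO library 2, the library kept when libraries 1 and 3 are left out, and 706 to 1081 CPM in the other 5. Endothelial genes gave 0 among 7 in edgeR's test, 3 higher at an unadjusted p of 0.05 and 1 higher by DESeq2, with summed levels of 155 to 163 CPM in control and 180 to 227 CPM in Zfhx3-CKO libraries, which do not overlap. Pecam1 had the smallest p of them (log2 difference 0.43, adjusted p 0.0755). Genes of the medial ganglionic eminence gave 4 calls among 8, all higher: the homeodomain factors Lhx8 (log2 difference 1.35), Nkx2-1 (0.90) and Nkx6-2 (2.39 CPM in control, 5.27 CPM in Zfhx3-CKO) and the zinc finger factor Zic1 (0.80), with summed levels of 290 to 315 and 366 to 539 CPM. Of 11 tested cortical excitatory genes 1 rose, Bhlhe22 (log2 fold change 2.92, adjusted p 0.0401), while 10 were higher at an unadjusted p of 0.05 and 4 by DESeq2, with a median of 1.40. The part of these cells in the results on the family was not tested. The fit without Zfhx3-CKO libraries 1 and 3 was chosen for the cortical genes only. Library 2, which it keeps, held 473 CPM of medial ganglionic eminence genes and 187 CPM of endothelial genes, both above every control.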

How the data were processed

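Raw counts per gene and FPKM values for 6 libraries were read from the deposited tables (29659 genes, and a shorter table of 3726 genes whose columns carry the sample titles and hold identical values). The submitters' processing notes name edgeR, StringTie, HISAT2 and bcl2fastq 2.17.1.14, and as builds mm10 and GRCm38.p4, with no roles. The deposited FPKM equal the count divided by exonic length and library total, per the file headers and values. The authors' deposited log2 fold changes and p-values come from a test whose settings the sources used here do not give.

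edgeR's quasi-likelihood test (edgeR 4.0.16, R 4.3.3) was run on the counts with TMM factors, filterByExpr (minimum count 10 by default, which kept 16551 genes), group as the only term, and Benjamini-Hochberg adjustment over all tested genes. SE came from the F statistic. Alternatives used DESeq2 1.42.0, limma 3.58.1 on log2(FPKM + 1) and log2(FPKM + 0.1), other scalings and filters, a replicate block and left-out libraries. The test was tried on simulated data first. Log2 CPM used a prior count of 2.

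The members, the 15 other lists (157 of 161 genes found) and the tests were chosen with earlier results of these data known. Genes named were all members and up to 6 called genes with the smallest p per list (otherwise the gene with the smallest p). Also named were a few genes (Zfhx3, striatal and cell cycle genes) whatever their values, the 5 nearest profiles and the genes beside each member. Gm11998, Gm11999, Csf1r, C1qa and Cx3cr1 were named or drawn as neighbours or as examples. Gpr6, Sp8 and Ptprm were named so that each tested D2-type gene is given. Promoter windows were found in RefSeq for 2 members and no protein sequence was used here. One gene that the rule names is not reported here.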

Additional observations from a re-analysis of the deposited data

How the results depend on the processing

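Ikzf1 kept its direction and its call in 15 of 15 alternatives (log2 fold change -2.97 to -2.42, highest adjusted p 0.000708), and Ikzf2 and Ikzf4 kept theirs without a call in 15 of 15 (-0.35 to -0.11 and -0.32 to -0.03). Ikzf5 was lower in 12 of 12 alternatives that tested it (with single libraries left out, -1.38 to -1.20), and its call was lost with the replicate number as a block (-1.29, adjusted p 0.0707) and without control libraries 1 or 2 or Zfhx3-CKO library 1. The number of lower members was therefore 1 with the replicate block, 1 to 2 with single libraries left out, and 1 with the strict filter and with both limma fits on FPKM, which leave Ikzf5 out by their filters. Same-numbered libraries had correlations of deviations from the group means of -0.03, -0.08 and -0.25, so the numbers were not taken as pairs. The block changed no other member's call, and moved the calls over all genes from 640 higher and 576 lower to 176 and 136. Leaving out single libraries moved those counts to between 156 and 1082 higher and between 131 and 1014 lower, and DESeq2 to 1021 and 755.

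The difference in the share of Ikzf1 in the family was -42.7 to -41.5 percentage points over 8 alternatives. Against Gad1, Gad2 and Slc32a1 alone the Ikzf4 difference was 0.0087 on the log2 scale, and against Bcl11b, Foxp1 and Meis2 the differences were -2.24 (Ikzf1), 0.37 (Ikzf2), 0.42 (Ikzf4) and -0.65 (Ikzf5). Those of Ikzf2 and Ikzf4 turned direction; the references themselves differ between the groups. Without single libraries the Ikzf4 difference lay between -0.30 and 0.014, above 0 without Zfhx3-CKO library 2.

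By DESeq2, lower genes on the other lists numbered 1 (NuRD), 5 (D1-type), 8 (shared striatal factors), 1 (cell cycle), 2 (microglia) and 1 (GABAergic). Higher genes numbered 4 (Sin3 and CtBP), 7 (D2-type), 5 (cell cycle) and 6 (medial ganglionic eminence). On further lists higher genes numbered 1 (NuRD), 1 (precursor factors), 1 (microglia), 4 (cortical), 1 (red blood cells) and 1 (endothelial). Without Zfhx3-CKO libraries 1 and 3, which leaves a lone library assumed to vary like the controls, they numbered 2 (NuRD), 5 (Sin3 and CtBP), 4 (precursor factors), 9 (cell cycle), 2 (microglia), 4 (red blood cells), 1 (endothelial) and 1 (GABAergic), and lower genes 0 (NuRD), 7 (D1-type), 1 (microglia) and 0 (GABAergic); the cause was not tested. With at most 53 counts per library, depth limits Ikzf5, and Ikzf3 was not measurable.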

Other observations

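All 5 family members carry the Pfam name zf-H2C2_2 in the deposited table. Of 166 tested genes with that name, a set looked at after the values were seen, 8 were lower and 7 higher in the Zfhx3-CKO LGE, which is 9.04% called against 7.35% of all tested genes. The set holds the members themselves, so Ikzf1 and Ikzf5 are among its 8 lower genes and raise its share of calls. Its median log2 fold change was 0.06. Ikzf1 had the lowest log2 fold change of the 166 and Ikzf5 ranked 4.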
